A study of Homo sapiens with 16 samples.

Results

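The genes of the tumour necrosis factor (TNF) ligand and receptor superfamily were described across 16 human T-cell acute lymphoblastic leukaemia (T-ALL) cell lines. Members were the genes whose symbol in the array annotation started with TNFRSF or TNFSF, together with TNF, LTA, LTB, FAS, FASLG, CD40, EDAR and LTBR. These were 41 of the 19775 genes that had a probe set naming only that gene. Of the 41, 38 code for protein, 24 as receptors and 14 as ligands, and TNFRSF14-AS1, TNFRSF10A-DT and TNFRSF10B-AS1 are noncoding. CD40LG, TNFSF12 and TNFRSF6B were not analysed as members, the last 2 because their probe sets also named another gene.

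Total RNA from each line, grown untreated at a common density for 24 hours, was hybridised to 1 Affymetrix U133 Plus 2.0 array. The lines were ALL-SIL, CCRF-CEM, DU528, HSB-2, JURKAT, KOPT-K1, LOUCY, MOLT-16, MOLT-4, P12-ICHIKAWA, PEER, PF-382, SKW-3, SUP-T11, SUP-T13 and TALL-1, all kept as permanent cultures. They form 1 group with no normal T cells and no repeated array, so a standard deviation (SD) here is the spread between different lines and contains the array error. Precision is limited by there being only 16 arrays.

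Ligands of this superfamily are mostly trimers made as membrane proteins, some of which are shed, and they signal by clustering their receptors. One set of receptors carries an intracellular death domain that can recruit caspase-8 through FADD. Most of the other receptors, apart from decoys, bind TRAF adaptors and act mainly through NF-kB. In the T-cell lineage the family is known for activation-induced death through FAS, for costimulation, and for the lymphotoxins, which act in building lymphoid organs.

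All 7 T-cell markers were measured, 5 of them above 4 times the table median in every line. Their summed intensity ran from 10771 in MOLT-16 to 39107 in KOPT-K1. Of 4 measured B-cell markers 3 never reached that level, and neither did 4 of 5 myeloid markers. The same held for only 1 of 3 erythroid and megakaryocytic markers and 2 of 4 stromal and endothelial markers. The summed B-cell markers ranged from 146 to 1369 (highest in LOUCY, carried by CD79B), the myeloid markers from 97.9 to 487 (DU528), the erythroid and megakaryocytic markers from 82.2 to 769 (LOUCY) and the stromal and endothelial markers from 184 to 4409.8 (DU528, carried by PECAM1). Their part in the levels below was not tested. Array medians lay between 37.6 and 45.0, and the ACTB ratio between 1.44 in DU528 and 2.03 in MOLT-4. That ratio divides the 3′ control reading of ACTB by the 5′ one and grows as RNA degrades.

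Each gene was read from its probe set with the highest mean of log2(intensity + 16) and compared with the median of the whole table, an intensity of 42.4 or 5.87 on that log2 scale. By this rule 23 members had a mean above the median and 18 were at background, where 59.1% of all genes had a mean above it. The means nearest the dividing line were 5.92 for LTBR just above it and 5.81 for TNFRSF10D just below it. Probe sets differ in how strongly they bind, so levels are compared between lines and not between genes. The log2(intensity + 16) scale understates differences among low values. In bulk RNA, fewer expressing cells and less RNA per cell cannot be told apart.

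The family varied more widely from line to line than most genes on the array. An SD above 1 log2 unit was found for 15 of the 41 members, against 12.5% of all genes, and for 12 of the 23 members above the table median, against 17.1% of all genes above it. The median SD was 1.03 for those 23 members and 0.40 for all genes above the median. No test was made of this difference. The ligands carried most of the spread, with 9 of 14 above an SD of 1 and a median SD of 1.16, while 6 of 24 receptors were above it and their median SD was 0.52. Only TNFRSF4 had a highest line at least 2 log2 units above the next line, a distance found for 1.52% of all genes. On the probe set read for each gene, a level of 4 times the table median, an intensity of 169, was never reached by 19 of the 41 members and by 45.1% of all genes.

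**Figure D1:**
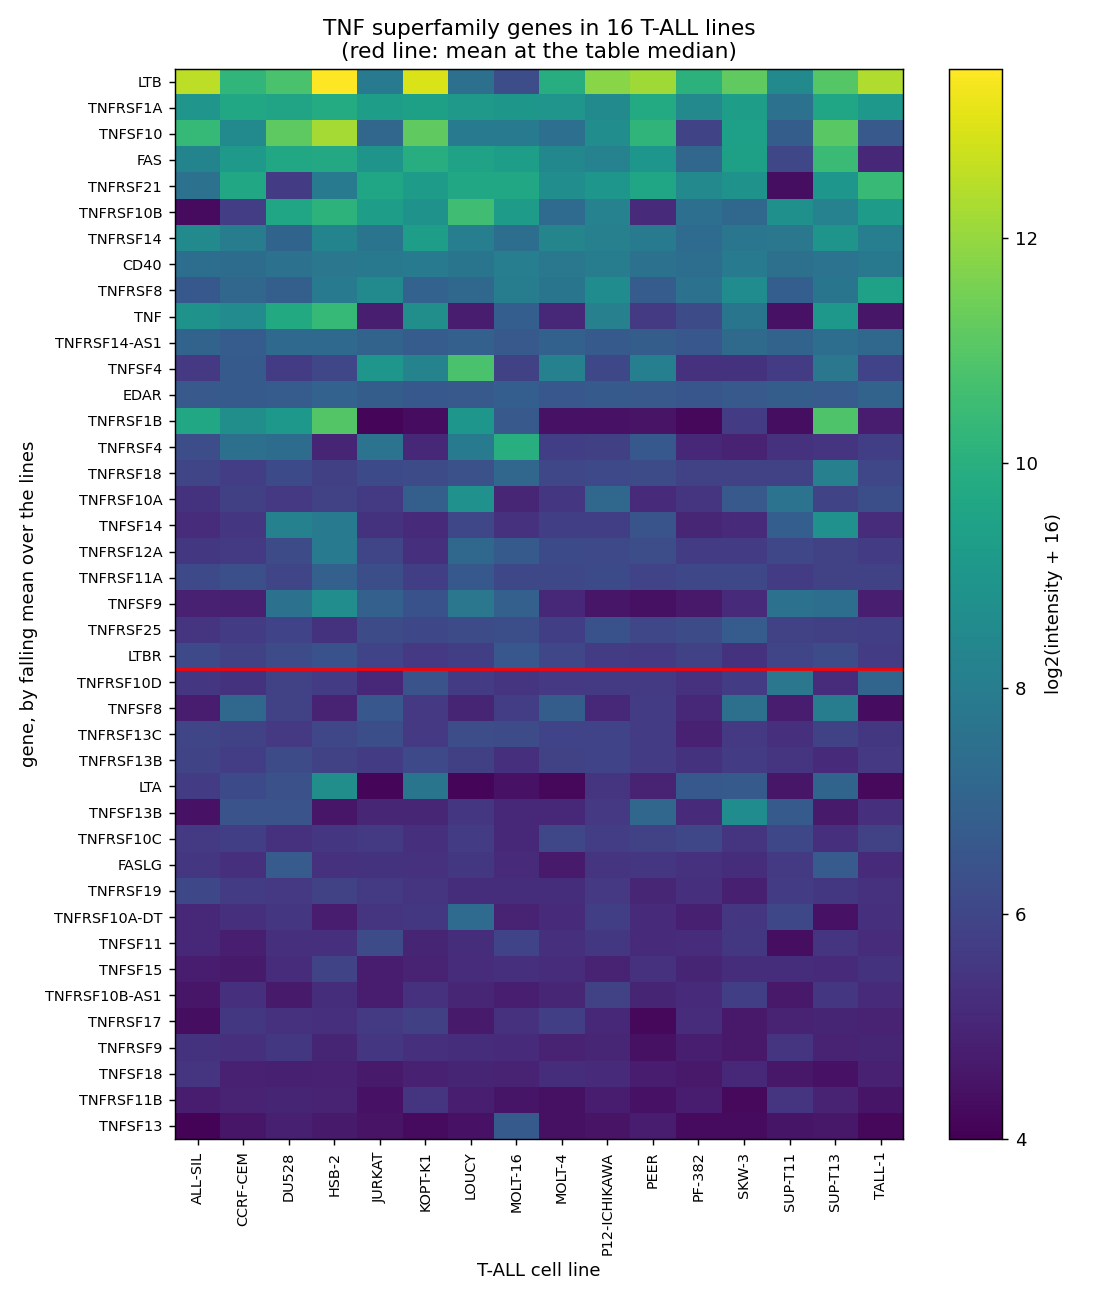
Level of the 41 members (rows, ordered by mean) in the 16 lines (columns), as log2(intensity + 16) on a colour scale. The 23 rows at the top have a mean above the table median of 5.87 and the 18 below do not. Several rows near the division, such as LTA and TNFSF13B, hold high values in a few lines.

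**Figure D2:**
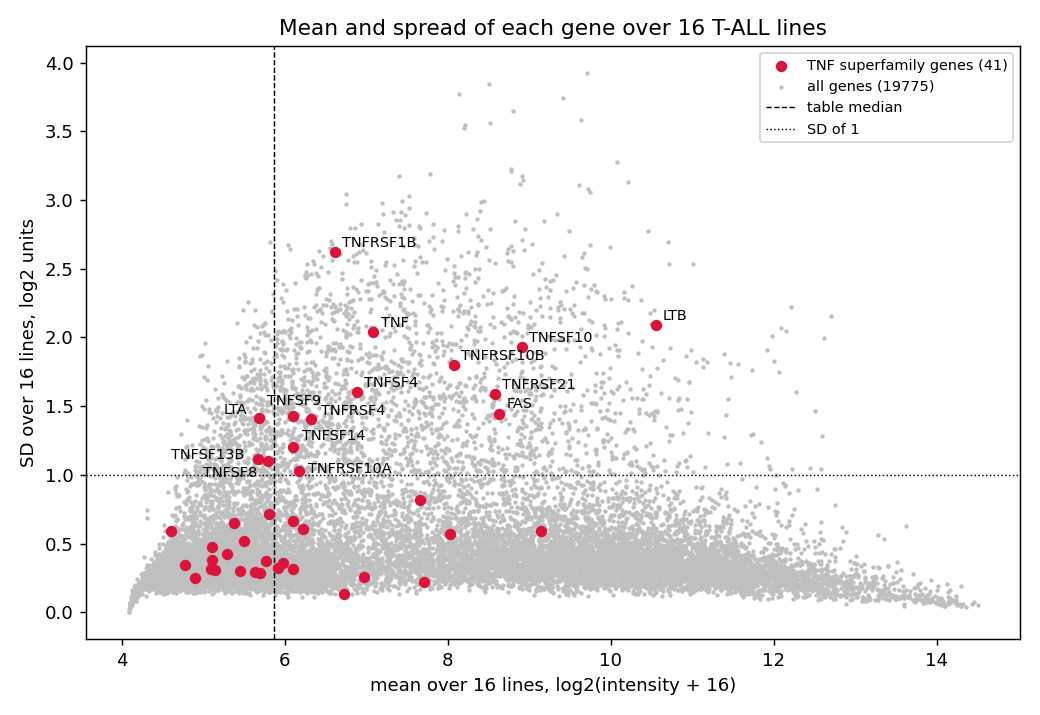
Mean (x axis) and SD (y axis) over the 16 lines of each of 19775 genes in grey and of the 41 members in red, both in log2 units. The 15 named members lie above an SD of 1 (dotted line), and 12 of them are right of the table median (dashed line).

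Among the ligands, LTB, TNF and LTA form 1 cluster on chromosome 6, with no other coding gene between TNF and LTA or between TNF and LTB. TNF and LTA can each act as a soluble homotrimer on the TNF receptors, and LTB, the membrane-bound lymphotoxin-beta, anchors LTA in a heterotrimer that binds LTBR. The 250 bases before a start of each gene are shown because the 3 genes are compared below as neighbours. LTA and LTB have 2 starts each in the promoter table, of which the first listed was used, and the annotated LTA gene begins further upstream than its window. The windows are from RefSeq on GRCh38.p14, written 5′ to 3′ on the gene's strand, at chr6:31575315-31575564 (plus strand) for TNF, chr6:31571849-31572098 (plus) for LTA and chr6:31582426-31582675 (minus) for LTB. Capitals mark every match on either strand to GGG and CC with 5 bases of any kind between them, a loose form of the motif bound by NF-kB, or to TATAAA.
TNF: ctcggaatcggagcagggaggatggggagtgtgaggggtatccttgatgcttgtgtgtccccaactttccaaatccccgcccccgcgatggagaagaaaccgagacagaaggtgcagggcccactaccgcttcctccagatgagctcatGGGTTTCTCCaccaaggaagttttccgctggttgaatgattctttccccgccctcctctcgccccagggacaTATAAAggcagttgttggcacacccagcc
LTA: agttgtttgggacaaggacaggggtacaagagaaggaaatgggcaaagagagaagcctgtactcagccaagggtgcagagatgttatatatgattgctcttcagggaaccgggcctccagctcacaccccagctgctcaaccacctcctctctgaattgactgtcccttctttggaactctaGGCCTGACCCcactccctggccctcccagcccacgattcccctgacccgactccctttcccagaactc
LTB: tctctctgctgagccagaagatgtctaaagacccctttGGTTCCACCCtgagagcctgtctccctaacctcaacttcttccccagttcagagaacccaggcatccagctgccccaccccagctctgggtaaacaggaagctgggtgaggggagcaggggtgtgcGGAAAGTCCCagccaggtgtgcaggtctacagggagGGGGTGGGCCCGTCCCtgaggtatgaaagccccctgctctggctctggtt
The first motif matched once before TNF, with its bases 101 to 92 before the start, once before LTA and at 6 overlapping or separate positions before LTB. TATAAA matched before TNF only. A match is a description of the letters: the first motif occurs in 54.4% of the 35116 promoter windows of this length and in 20 of the 27 members' windows, and TATAAA in 10.7% of all windows and in 4 of the 27.

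LTB was above the table median in all 16 lines and above 4 times the median in 14. Its intensity was 60.6 in MOLT-16, the lowest line, 1895.5 at the median and 11474 in HSB-2, the highest (SD 2.09 log2 units). KOPT-K1 with 7988, ALL-SIL with 5993 and TALL-1 with 5246 followed HSB-2. MOLT-16, LOUCY with 168, JURKAT with 227 and SUP-T11 with 362 formed the low end, below MOLT-4 with 958.

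TNF, the cytokine that gives the family its name, separated the lines more evenly. Its intensity was 6.20 in SUP-T11, 143 at the median and 1302 in HSB-2 (SD 2.04). DU528 with 867, SUP-T13 with 519.8 and ALL-SIL with 439 came next, and 8 lines exceeded 4 times the table median. SUP-T11, TALL-1, LOUCY, JURKAT, MOLT-4 and PEER, at 33.1 or less, were below the table median. LTA, whose product is lymphotoxin-alpha, had a mean at background but was far from flat, with 1.46 in LOUCY, 31.5 at the median and 398 in HSB-2 (SD 1.42). KOPT-K1 with 191 was the other line above 4 times the median, and SUP-T13 followed with 118. LOUCY, JURKAT, MOLT-4 and TALL-1, all low for TNF, had LTA intensities of 2.78 or less.

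TNFSF10 encodes TRAIL, a ligand that triggers death through TNFRSF10A and TNFRSF10B. It was above the table median in every line, with 46.0 in PF-382, 365 at the median and 4810.5 in HSB-2 (SD 1.93). KOPT-K1 with 2302, DU528 with 2269 and SUP-T13 with 2151 were also high, and PF-382, TALL-1 with 84.5 and SUP-T11 with 95.6 were the lowest lines. Both other TNFSF10 probe sets were highest in HSB-2 and lowest in PF-382, and their Pearson r with the chosen one over the 16 lines was 0.994 and 0.967. The window before its start, at chr3:172523431-172523680 (minus strand, same source and capitals), is shown because TNFSF10 was among the most widely varying ligands.
TNFSF10: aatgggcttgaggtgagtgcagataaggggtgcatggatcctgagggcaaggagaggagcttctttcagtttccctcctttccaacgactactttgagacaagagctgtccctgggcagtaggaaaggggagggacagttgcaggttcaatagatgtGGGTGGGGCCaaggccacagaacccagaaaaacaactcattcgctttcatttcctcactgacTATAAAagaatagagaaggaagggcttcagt
It holds 1 match to each motif.

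TNFSF4, the OX40 ligand of costimulation, was high in few lines. Its intensity was 24.5 in PF-382, 49.6 at the median and 1756 in LOUCY (SD 1.60). JURKAT with 498, KOPT-K1 with 291, MOLT-4 with 272, PEER with 259.8 and SUP-T13 with 201 were the other lines above 4 times the median. The remaining 10 lines were at 86.6 or below, which left no line between 86.6 and 201.

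TNFSF9, the ligand of the costimulatory receptor TNFRSF9, ranged from 5.68 in PEER over a median of 43.8 to 389 in HSB-2 (SD 1.43). LOUCY with 200.5, DU528 with 173 and SUP-T11 with 172 also passed 4 times the median. The lines fell into 8 with 69.0 or more and 8 with 18.7 or less. The next coding gene on chromosome 19 is CD70, the ligand of CD27 and a family member whose symbol lies outside the selection. CD70 ranged from 4.38 in ALL-SIL to 1396 in DU528 (SD 2.04), with 926 in HSB-2. The window before TNFSF9, at chr19:6530776-6531025 (plus strand, same source and capitals), is shown for this neighbour pair.
TNFSF9: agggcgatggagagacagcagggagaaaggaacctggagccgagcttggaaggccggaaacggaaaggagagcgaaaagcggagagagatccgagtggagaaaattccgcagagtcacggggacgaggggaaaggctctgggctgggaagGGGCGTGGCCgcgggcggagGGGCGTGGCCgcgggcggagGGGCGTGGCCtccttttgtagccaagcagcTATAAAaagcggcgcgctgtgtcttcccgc
The GGG and CC motif matched at 3 positions and TATAAA once, 30 to 25 bases before the start.

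TNFSF14, known as LIGHT and a ligand of TNFRSF14 and LTBR, was high in SUP-T13 with 427, DU528 with 275 and HSB-2 with 219, against a median of 33.9 and a lowest value of 16.8 in PF-382 (SD 1.20). Its second probe set followed it (r = 0.962 over the 16 lines) and reached 862 in SUP-T13. TNFSF8, the ligand of TNFRSF8, had a mean at background and a range from 4.15 in TALL-1 over 34.1 at the median to 237 in SUP-T13, with 166 in SKW-3 (SD 1.10). TNFSF13B, the B-cell survival factor BAFF, was also at background on average, with 6.02 in ALL-SIL, 21.3 at the median and 374 in SKW-3 (SD 1.12), and PEER followed with 125. The second TNFSF13B probe set was again highest in SKW-3, with 327.

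FASLG, which encodes the ligand of FAS, was at background in most lines, with 9.44 in MOLT-4, 25.3 at the median, 89.4 in SUP-T13 and 88.6 in DU528 (SD 0.52). A second probe set reached 191 in DU528. The remaining ligands never exceeded 4 times the median: the highest values were 86.2 for TNFSF13 (APRIL) in MOLT-16, 56.7 for TNFSF11 (RANKL) in JURKAT, 45.1 for TNFSF15 in HSB-2 and 28.1 for TNFSF18 in ALL-SIL. On the chosen probe sets, 5 of the 14 ligands stayed below that level in every line, among them FASLG, whose second probe set passed it in 2 lines.

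**Figure D3:**
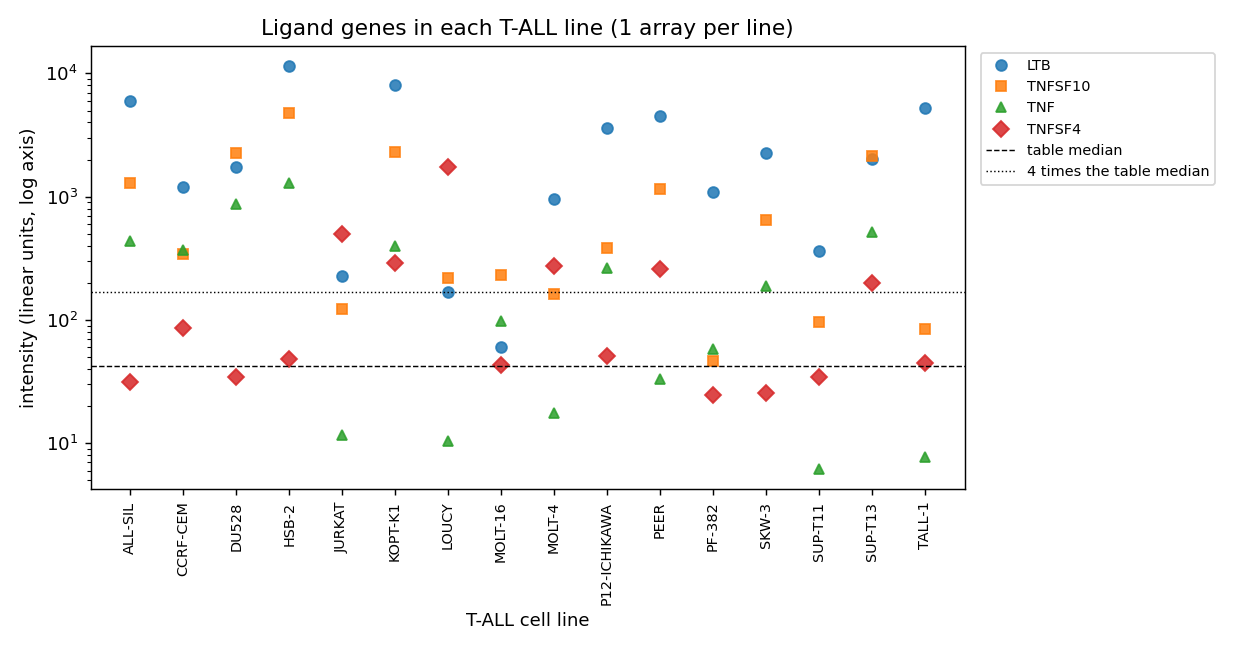
Intensity (log axis) of LTB, TNFSF10, TNF and TNFSF4 in each of the 16 lines, 1 array per line, with the table median (dashed) and 4 times the median (dotted). HSB-2 carries the highest LTB, TNFSF10 and TNF points, and LOUCY the highest TNFSF4 point at 1756.

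The receptors of TNF and soluble LTA behaved differently from each other. TNFRSF1A, a death-domain receptor made by most cell types, was above 4 times the median in all 16 lines, with 173 in SUP-T11, 587 at the median and 902 in HSB-2 (SD 0.59). TNFRSF1B, which has no death domain and is best known from lymphoid cells, was above that level in 6 lines only. Its intensity was 1.70 in JURKAT, 23.7 at the median and 1989.7 in HSB-2, and its SD of 2.62 was the largest in the family. The high lines were HSB-2, SUP-T13 with 1884, ALL-SIL with 813, DU528 with 519, LOUCY with 489.8 and CCRF-CEM with 396. MOLT-16 with 85.8 was next, and the other 9 lines were below the table median, 36.1 or less. The gap between MOLT-16 and CCRF-CEM took up 29.6% of the whole log2 range.

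FAS, the death receptor of FASLG, exceeded 4 times the median in 13 lines. It was 17.7 in TALL-1, 513 at the median and 1405 in SUP-T13 (SD 1.45), and SUP-T11 with 49.8 and PF-382 with 125 were the other low lines. Of its other 4 probe sets 3 had an r of 0.988 or 0.989 with it over the lines and were also lowest in TALL-1. In these same lines TNFRSF10B had intensities of 583 (TALL-1), 422 (SUP-T11) and 161 (PF-382).

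TNFRSF10B, a death receptor for TRAIL, was 3.48 in ALL-SIL, 353 at the median and 1529 in LOUCY (SD 1.80). HSB-2 followed with 1119.9, and 10 lines exceeded 4 times the median. PEER with 18.8 and CCRF-CEM with 36.6 joined ALL-SIL below the table median. Its probe sets did not all follow the same order: 2 had an r of 0.823 and 0.752 with the chosen one but never exceeded 101, and another had an r of -0.771 and was highest in PEER with 135. TNFRSF10A, the second death receptor for TRAIL, was high in LOUCY with 431 and SUP-T11 with 181, against a median of 40.5 and 16.3 in MOLT-16 (SD 1.03), and its 3 probe sets were all highest in LOUCY. The TRAIL decoy receptors, which bind the ligand without a working death domain, were low: TNFRSF10D was highest in SUP-T11 with 204 and TALL-1 with 121, and TNFRSF10C reached 50.5. Set against its ligand, TNFSF10 and TNFRSF10B were both above 4 times the median in 7 lines, TNFSF10 alone in ALL-SIL, CCRF-CEM, PEER and SKW-3, TNFRSF10B alone in JURKAT, SUP-T11 and TALL-1, and neither in MOLT-4 and PF-382.

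TNFRSF21, a death-domain receptor also called death receptor 6, was above 4 times the median in 14 lines and below the table median in the other 2. It was 4.47 in SUP-T11, 489.6 at the median and 1388 in TALL-1 (SD 1.59), with 35.5 in DU528. Its second probe set ran alongside (r = 0.991 over the lines). TNFRSF25, another death-domain receptor, read differently by probe set. The probe set chosen by the rule was nearly flat, 26.1 to 92.8 with an SD of 0.36, whereas 2 others reached 563 and 606 in SKW-3 with SDs of 1.74 and 1.69 and exceeded 4 times the median in 4 lines. All 5 TNFRSF25 probe sets were highest in SKW-3.

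**Figure D4:**
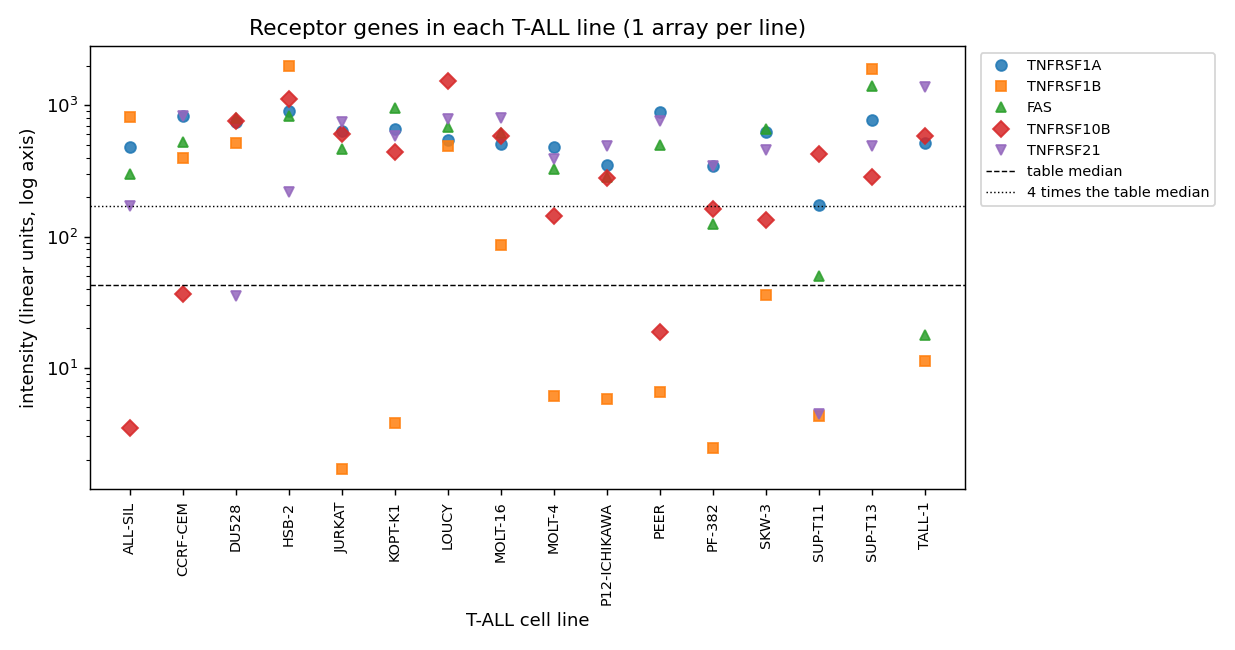
Intensity (log axis) of TNFRSF1A, TNFRSF1B, FAS, TNFRSF10B and TNFRSF21 in each of the 16 lines, 1 array per line, with the table median (dashed) and 4 times the median (dotted). TNFRSF1A stays above 169 in every line, whereas TNFRSF1B spans 1.70 to 1989.7.

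Among the receptors that bind TRAF adaptors, TNFRSF14, the receptor of TNFSF14 also called HVEM, was above the table median in all lines, from 117 in DU528 over 244 to 615 in KOPT-K1 (SD 0.57). TNFRSF8, known as CD30, ranged from 82.7 in ALL-SIL over 182 to 675 in TALL-1 (SD 0.82), and SKW-3 with 378, P12-ICHIKAWA with 376 and JURKAT with 351.5 were next. TNFRSF4, the OX40 receptor, was set apart in MOLT-16 with 987, against 218 in LOUCY, 182 in JURKAT and 14.1 in SKW-3 (SD 1.41). That value rests on a probe set whose name marks possible cross-hybridisation, and the other TNFRSF4 probe set ranged from 22.5 to 51.5 with an r of -0.28. TNFRSF18, the neighbouring gene and the receptor GITR, was highest in SUP-T13 with 262 and next in MOLT-16 with 126, and its second probe set was highest in SUP-T13 too, with 235. TNFRSF12A, the receptor of TWEAK, was highest in HSB-2 with 227 and LOUCY with 127, against 24.3 in KOPT-K1.

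Several receptors were above the median by the rule yet hardly differed between lines. EDAR, the ectodysplasin receptor, stayed between 77.7 and 114 (SD 0.13), TNFRSF11A (RANK) between 36.0 and 105, and LTBR, the lymphotoxin-beta receptor, between 26.0 and 80.7. The other LTBR probe sets never exceeded 43.3, and their r with the chosen one was 0.087 to 0.344. CD40, the costimulatory receptor of B and myeloid cells, lay between 146 and 249 (SD 0.22) on its chosen probe set, but its other 3 probe sets never exceeded 33.0, so its class depends on that choice. Never above 4 times the median were also the B-cell receptors TNFRSF13C (at most 62.2), TNFRSF13B (57.7) and TNFRSF17 (40.0), the costimulatory receptor TNFRSF9 (30.4), TNFRSF19 (50.0) and TNFRSF11B, the soluble decoy of TNFSF11 (28.3). Of the noncoding members, TNFRSF14-AS1 was between 78.8 and 159 in all lines, TNFRSF10A-DT reached 142 in LOUCY, the line with the highest TNFRSF10A, and TNFRSF10B-AS1 stayed at or below 41.4. Levels of antisense and divergent transcripts were read from their own probe sets.

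The lines differed in how many coding members were above 4 times the median. HSB-2 and SUP-T13 had 15 each, LOUCY 12 and KOPT-K1 11, while PF-382 had 4 and the others between 7 and 10. HSB-2 held the highest value of 6 of the 15 members with an SD above 1, and LOUCY and SUP-T13 of 3 each. PF-382 had the lowest value of 3. The same counts were not made over all genes, so whether these lines stand out in this family in particular is not known. The ACTB ratio was 1.54 in HSB-2, 1.45 in SUP-T13 and 1.90 in PF-382; its part in these counts was not tested.

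For the 6 members with the largest SD among those with 3 or more lines above the median, the genes with the most similar pattern were found by Pearson r over the 16 lines among 13309 genes. The values are a description of lines that share all their arrays. TNFRSF1B was most like PDCL (r = 0.914), SAMSN1 (0.898) and NIBAN2 (0.893). LTB was most like SSBP3 (0.896), GAB2 (0.875) and DGKA (0.867), and TNFRSF10B most like MYLIP (0.874), FUOM (0.868) and CCDC126 (0.848). TNFSF10 was most like NHERF1 (0.922) and the cytokine-signalling inhibitors SOCS1 (0.909) and CISH (0.896). TNF was most like NKX6-3 (0.844), LTA (0.833) and TRAPPC1 (0.826). TNFSF4 was most like ADM (0.824), FMOD (0.79) and ZNF146 (0.784), and without LOUCY those values were 0.67, 0.681 and 0.649. FMOD ranged only from 33.25 in PF-382 to 83.09 in LOUCY.

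The signalling genes downstream of the receptors were measured in every line. Of 8 measured death-signalling genes, 5 were above 4 times the median in all 16 lines, among them CASP8 (542 in MOLT-16 to 1346 in SUP-T13) and its inhibitor CFLAR (271 in MOLT-4 to 1121 in HSB-2). CASP10, the other initiator caspase, varied more, from 51.4 in MOLT-16 to 759 in PEER (SD 1.20). Of 5 measured TRAF adaptors, TRAF5 ranged from 13.2 in ALL-SIL to 2118 in LOUCY (SD 1.69), and TRAF1 never exceeded 4 times the median. The 11 core NF-kB pathway genes had no SD above 1, and 9 of them were above that level in all lines. CYLD, a deubiquitinase that dampens the pathway, had the largest range there, 73.3 in P12-ICHIKAWA to 1238 in DU528. Of 13 measured NF-kB target genes 5 had an SD above 1, among them NFKB1 (35.4 in P12-ICHIKAWA to 1236 in SUP-T13), TNFAIP3 (111 in SUP-T11 to 1582 in TALL-1) and IER3 (22.9 in DU528 to 2019 in HSB-2).

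Whether members follow NF-kB activity across lines was asked with a score, the mean of the centred log2 values of those 13 target genes, in limma with Benjamini-Hochberg adjustment over all genes tested. The score was lowest in SUP-T11 (-0.50) and highest in HSB-2 (0.49), its genes correlated weakly with each other (median pairwise r of 0.131), and its r with the log2 ACTB ratio was -0.371. At an adjusted p below 0.05, limma called 0% of the 13298 genes as rising with the score and 0% as falling, and 0 of the 30 members that passed the filter of 3 lines above the median. At an unadjusted p below 0.05 there were 2 of 30 members, against 8.7% of all genes. These were TNFRSF1A, with a slope of 1.34 log2 units per unit of score (SE 0.38, limma adjusted p = 0.408), and TNFRSF21, with a slope of 2.52 (SE 1.18, adjusted p = 0.566). Without SUP-T11 the slope was 1.05 for TNFRSF21 and 0.89 for TNFRSF1A, and with a score of feedback genes alone 1.12 and 0.57. The slope of TNFRSF21 was 1.51 with log2(intensity + 64), 1.37 with the mean of all probe sets and 0.93 with the probe sets of highest SD. Slopes were positive for 24 of 30 members and 57.5% of all genes.

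LYL1, a transcription factor high in immature T-ALL, was used the same way to ask whether members follow the immature state. Its log2 level ran from 6.58 in TALL-1 to 11.84 in LOUCY. limma called 0.654% of 13309 genes as rising with LYL1 and 0.188% as falling, and 0 of 30 members at an adjusted p below 0.05. At an unadjusted p below 0.05 there were 3 of 30 members, against 15.7% of all genes. They were TNFRSF4 (slope 0.47 per log2 unit of LYL1, SE 0.17, limma adjusted p = 0.185), FAS (0.46, SE 0.17, adjusted p = 0.217) and TNFRSF1B (0.79, SE 0.32, adjusted p = 0.253). Slopes were positive for 22 of 30 members and 54.1% of all genes. With the ACTB ratio as a covariate TNFRSF4 was called (slope 0.83, adjusted p = 0.0333), on the probe set described above. Its slope was 0.22 with the mean of all probe sets (adjusted p = 0.198). With the same covariate the slope of TNFRSF1B was 0.33 (adjusted p = 0.714) and that of FAS 0.53 (adjusted p = 0.27).

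Pairs of a ligand with its receptor, and pairs of family genes that lie near each other on a chromosome, were compared over the 16 lines by Pearson r and Spearman rho with two-sided permutation p values from 100000 resamples. CD70 and CD27 entered these pairs although they are not members, and the pairs include TNFRSF14 with TNFRSF25, which have 30 coding genes between them. TNFSF14 lies on chromosome 19 with TNFSF9 and CD70, but its pairs with these 2 genes were not listed and were not compared. Of 35 listed pairs, 24 had 3 or more lines above the median for both genes and were run, and adjusted p values cover those 24. The labels name no batch within which to repeat them. Both pairs that passed an adjusted p of 0.05 are adjacent coding genes, but other adjacent pairs did not pass. Those were TNF with LTB (r = 0.532, permutation, adjusted p = 0.167), TNFRSF4 with TNFRSF18, and TNFRSF1B with TNFRSF8. TNF and LTA had an r of 0.833 (permutation p = 0.00019, adjusted p = 0.00456, n = 16) and a rho of 0.797 (permutation p = 0.00051, adjusted p = 0.00612). Without HSB-2 and SUP-T11, the lines farthest from the TNF median, r was 0.784.

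TNFSF9 and CD70 had an r of 0.733 (permutation p = 0.00066, adjusted p = 0.00792, n = 16) and a rho of 0.803 (permutation p = 0.00038, adjusted p = 0.00612), and r was 0.712 without HSB-2 and LOUCY. Both genes were above 4 times the table median in DU528 and HSB-2, TNFSF9 alone in LOUCY and SUP-T11, CD70 alone in KOPT-K1 and SUP-T13, and neither in the other 10 lines. In SUP-T11 the intensities were 172 for TNFSF9 and 51.9 for CD70, and in KOPT-K1 they were 69.0 and 248. Within the lines on either side of the widest gap in the first gene, a split chosen after seeing the data, neither relation passed. TNF with LTA had an r of 0.53 in the lower 8 lines (exact permutation p = 0.161) and of 0.567 in the upper 8 (exact permutation p = 0.141). TNFSF9 with CD70 had an r of 0.472 in the lower 8 (exact permutation p = 0.235) and of 0.432 in the upper 8 (exact permutation p = 0.294). With the ACTB ratio taken out of both TNFSF9 and CD70, r was 0.685 (permutation, adjusted p = 0.0509). Without HSB-2, r over the other lines was 0.65, and without LOUCY 0.787. Over all 16 lines the widest gap took 30.6% of the range of TNFSF9 and 32.0% of that of CD70. Both were just short of the third part, at which lines were to be analysed in separate sets. Where DU528, HSB-2, KOPT-K1 or SUP-T11 was left out, the gap of either gene or of both reached that share, and no set passed. In the lines low for CD70, r was 0.757 without DU528 (12 lines) and 0.667 without SUP-T11 (11 lines). In the lines high and low for TNFSF9 it was 0.15 and 0.472 without HSB-2 (7 and 8 lines). In the lines low for both genes it was 0.472 without KOPT-K1 (8 lines).

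**Figure D5:**
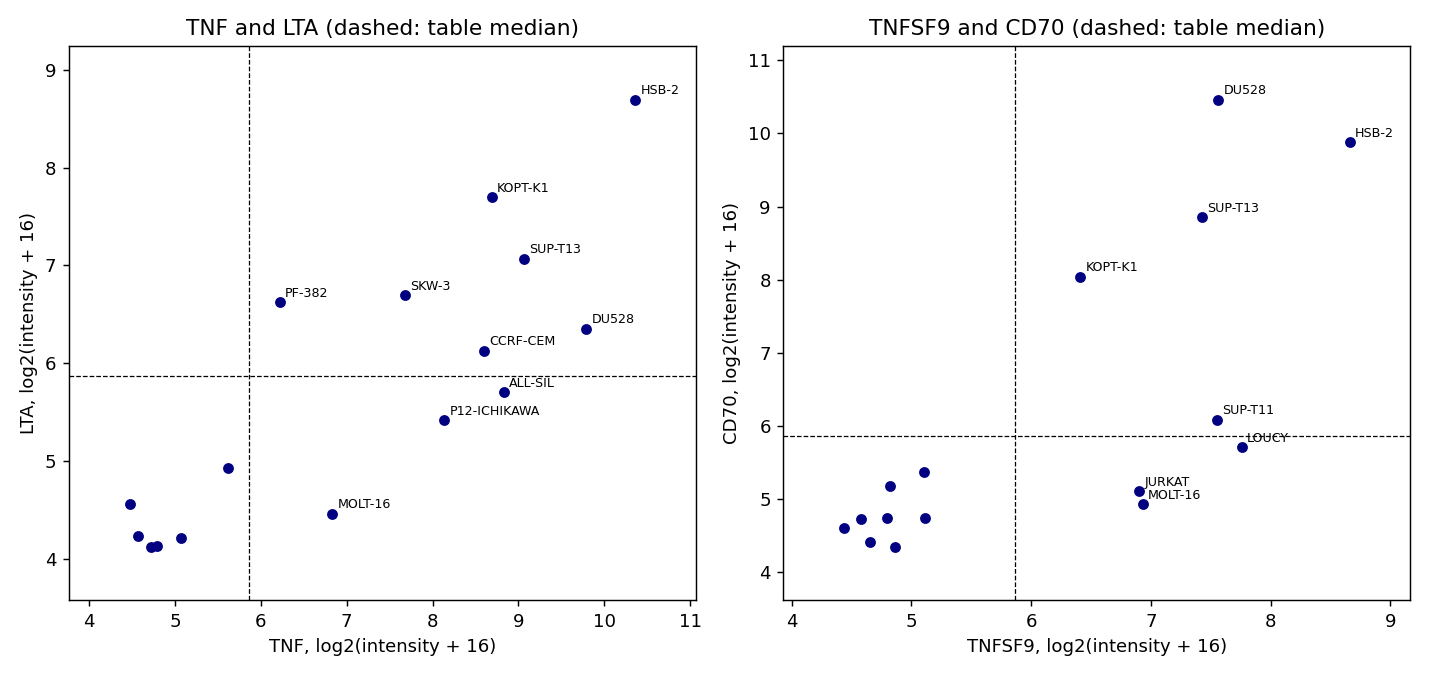
Level of LTA against TNF (left) and of CD70 against TNFSF9 (right) in the 16 lines, as log2(intensity + 16), with the table median dashed on both axes and lines named where either gene is above it. HSB-2 is at the upper right in both panels, and r is 0.833 on the left and 0.733 on the right.

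None of the 13 ligand and receptor pairs run passed the adjustment. The closest was TNF with TNFRSF1B, with an r of 0.642 (permutation p = 0.00911, adjusted p = 0.0601, n = 16) and a rho of 0.591. Both genes were above 4 times the median in 5 lines, TNF alone in KOPT-K1, P12-ICHIKAWA and SKW-3, and TNFRSF1B alone in LOUCY. It passed when KOPT-K1, P12-ICHIKAWA or LOUCY was left out, with an r of 0.777 (permutation, adjusted p = 0.00896) without LOUCY. Without CCRF-CEM or MOLT-16 the gap rule divided the lines and no set passed: r was 0.258 in the set analysed without CCRF-CEM (permutation, adjusted p = 0.714), and without MOLT-16 it was 0.485 in the lines high for TNFRSF1B and 0.258 in those low for it. TNFSF10 with TNFRSF10B (r = -0.067), TNFSF14 with TNFRSF14 (0.053), TNFSF8 with TNFRSF8 (0.046), TNFSF4 with TNFRSF4 (0.246), LTB with LTBR (-0.302) and CD70 with CD27 (-0.406) were further from it. Of the other pairs on a shared chromosome, LTA with LTB (0.622, permutation, adjusted p = 0.0601) came nearest and passed without PEER (0.672) or TALL-1 (0.733). TNFRSF10A with TNFRSF10B (0.436), TNFRSF4 with TNFRSF18 (0.258) and TNFRSF1B with TNFRSF8 (-0.274) did not pass. A p that misses the threshold does not show that 2 genes vary independently in lines of this number.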

How the data were processed

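Expression was measured in 16 T-ALL lines with 1 array each. The authors deposited probe set intensities on a linear scale, and per the labels' protocols total RNA was extracted with Trizol and a column and labelled with biotin. How the intensities were scaled and corrected for background, and with which software, is not given in the sources used here. No further normalization was applied, and 0 columns were left unmapped. Of 54675 probe sets, 62 were controls, 41091 named 1 gene and 1801 several; 41037 of the former matched RefSeq gene identifiers and 0 symbols changed. Intensities were analysed as log2(intensity + 16). Fits used limma 3.58.1 (trend, robust) in R 4.3.3 on genes whose 3rd highest value was above the table median, adjusted over all genes tested. Relations used scipy 1.17.1. Pairs whose widest gap took at least the third part of a gene's range, with at least 3 lines on each side, were to be run only within sets of 6 or more lines. Scripts were tested on simulated data. All members may be named, with at most the 6 widest genes of each other list, LYL1, and the 3 genes most like each of 6 members. The members and lists were chosen with earlier results of these data known. Promoter windows were matched for 27 members by symbol, using the first listed start, and members on chromosome 8 were left out.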

Additional observations from a re-analysis of the deposited data

How the results depend on the processing

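The lines have 1 array each, so array error cannot be separated from the spread between lines, and low intensities limit members near background. With log2(intensity + 64), LTA, TNFSF8, TNFSF13B, TNFRSF10A and TNFSF9 no longer had an SD above 1. With the mean of all probe sets, TNFRSF10A, TNFRSF10B, TNFRSF4 and TNFSF8 no longer had one. TNFRSF25 newly had one in both of these settings. Without cross-hybridising probe sets TNFRSF4 lost it as well. Members above the table median numbered 18 to 26 over 7 alternatives and 23 to 24 with each line left out in turn, and members with an SD above 1 numbered 11 to 17 and 13 to 15. CD40, LTBR, TNFRSF11A and TNFRSF25 became background when probe sets were averaged or the one of highest SD was taken. TNFRSF14-AS1 did so with the probe set of highest SD only, and TNFRSF4 without cross-hybridising probe sets. Genes called with the NF-kB score numbered 3 with log2(intensity + 64), 4 with the mean of all probe sets, 2 with the highest-SD probe set and 0 to 3 with a line left out, and 0 members were called in any of them. Genes called with LYL1, 112 in the fit reported, numbered 67 with log2(intensity + 1), 55 with the ACTB covariate, 63 without a filter and 66 with the 8th highest value above the median. With a line left out they numbered 11 to 147, with 11 without LOUCY, 33 without DU528, 35 without PF-382, 38 without KOPT-K1, 46 without MOLT-4, 48 without P12-ICHIKAWA, 64 without TALL-1 and 66 without CCRF-CEM. With the ACTB covariate 1 member, TNFRSF4, was called.

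Pairs passing numbered 4 with the mean of all probe sets (TNF with TNFRSF1B and LTA with LTB joined), 1 with the ACTB ratio taken out and 1 to 4 with a line left out. The r of TNF with LTA was 0.793 to 0.872 with a line left out, and 0.53 and 0.567 on the sides of the gap, a split added after seeing the data. The r of TNFSF9 with CD70 was 0.685 with the ACTB ratio taken out, 0.472 and 0.432 on the sides of the gap, and 0.15 to 0.787 with a line left out. Without DU528, HSB-2, KOPT-K1 or SUP-T11 the gap rule divided the lines; leaving lines out without applying it again, also added after seeing the data, gave 0.65 to 0.787. The cause of these changes was not tested. TNF with TNFRSF1B passed with log2(intensity + 64) (r = 0.69, permutation, adjusted p = 0.0325). No paired analysis was possible because the lines form 1 group without replicate numbers.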

Other observations

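Probe sets that name several genes were left out of the members and hold further readings of the family. The probe set shared by RTEL1-TNFRSF6B and TNFRSF6B, a soluble decoy receptor for FASLG, ranged from 89.6 to 335 (highest in SUP-T11) with 5 lines above 4 times the table median. The probe set shared by TNFSF12-TNFSF13 and TNFSF12, the ligand TWEAK, ranged from 2.17 to 97.8 (highest in DU528). The probe sets shared by TNFSF12-TNFSF13 and TNFSF13 were highest in MOLT-16 with 96.3, 107 and 103, the line that also had the highest value of the TNFSF13 probe set. The probe set shared by TNFSF12-TNFSF13, TNFSF12 and TNFSF13 ranged from 13.9 to 41.8 (highest in MOLT-4), and those shared by LOC254896 and TNFRSF10C from 33.2 to 79.8 and from 22.0 to 50.3. These readings cannot be assigned to 1 gene. Among family members outside the selection, CD27, the receptor of CD70, was 52.3 in SUP-T11 to 194 in SKW-3, RELT was 164 in PF-382 to 301 in LOUCY, and EDA, EDA2R and NGFR never exceeded 4 times the median.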
